A study of Mus musculus with 8 samples.

Results

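The D and E cyclins and the CDK inhibitors that set the length of G1 were followed here across genotype and day of differentiation. They are 10 genes, chosen by name from the 24421 genes of the expression table: the D cyclins Ccnd1, Ccnd2 and Ccnd3, the E cyclins Ccne1 and Ccne2, the CIP/KIP inhibitors Cdkn1a and Cdkn1b, and the INK4 inhibitors Cdkn2a, Cdkn2b and Cdkn2c. All 10 were found and all 10 passed the filter on low values, FPKM 1 or more in at least 2 libraries, which 14337 genes passed. FPKM counts the sequenced fragments of a gene per kilobase of its length, divided by a scale for each library, so that levels of different genes can be set side by side.

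The study asked what HIRA, the chaperone that places the histone variant H3.3 independently of DNA replication, does to gene expression when mouse embryonic stem cells become cardiomyocytes. The WT cells were the W9.5 line and the Hira-null cells were the line Clone104, so the mutant genotype stood on 1 clone. In both the H3.3 carried an HA tag. The day 0 cells were undifferentiated, on gelatin with serum and LIF, and those of day 15 were cultures grown from hanging-drop embryoid bodies, with beating areas in both genotypes. Each of the 4 groups had 2 libraries of polyadenylated RNA from different biological samples, 8 in all, with 6897009 to 11088835 fragments a library as recovered from the FPKM steps. These are bulk cultures, in which fewer cells of a type and less RNA per cell cannot be told apart.

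D cyclins bind CDK4 and CDK6 and carry growth signals to the RB protein, whose phosphorylation frees E2F factors. E cyclins with CDK2 complete this step and open S phase. The INK4 proteins bind CDK4 and CDK6 and keep D cyclins away from them. The CIP/KIP proteins p21 (Cdkn1a) and p27 (Cdkn1b) bind whole cyclin and CDK complexes, above all those of CDK2. Mouse embryonic stem cells are known for a short G1 with high cyclin E activity, and G1 lengthens and inhibitors accumulate as cells differentiate.

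Before the cyclins, the labels were checked. Hira itself read 27.3 and 28.5 FPKM in the WT libraries at day 0 and 12.4 and 11.4 in the Hira-null libraries (log2 ratio −1.17 ± 0.10, adjusted p = 8.48e-05). Here and below such a ratio is limma's log2 fold change of FPKM + 1, Hira-null over WT, with its standard error after the ± sign, and p-values were adjusted over all genes tested. At day 15 it read 15.8 and 15.5 in WT and 16.7 and 19.8 in the libraries labelled Hira-null, so the label came with no lower level (log2 ratio 0.20, 95% interval −0.039 to 0.45, adjusted p = 0.167). Without replicate 1 of the libraries labelled Hira-null at day 15 the adjusted p was 0.0497, with Hira higher than in WT. The exons of Hira overlap Gm15797 on the same strand, and the sources used here do not say which exons the deletion removes. The level of Hira therefore checks the day 0 label and not that of day 15, and every day 15 direction below is for the libraries as labelled. All 8 pluripotency markers had an FPKM of at least 1 in every library. Their summed level was 3448 to 3664 FPKM in WT and 5121 to 5125 in Hira-null cells at day 0, against 507 to 536 and 731 to 733 at day 15. By gene, at an adjusted p of 0.05 or less, 4 were higher and 1 lower in Hira-null at day 0, and 6 higher and 2 lower at day 15. Of all genes tested, 20.8% were higher and 19.4% lower at day 0, and 18.6% and 18.8% at day 15. Dppa5a, which carried most of the day 0 sum difference, averaged 1032 FPKM in WT and 2355 in Hira-null, and Zfp42 457 and 179. The 10 cardiomyocyte markers summed to 243 to 246 FPKM in WT and 154 to 155 in the libraries labelled Hira-null at day 15. Of them 9 and 10 were present at an FPKM of at least 1, and 1 was higher and 5 lower. Myl7, which carried most of that sum difference, averaged 66.9 FPKM in WT and 12.1 in the libraries labelled Hira-null, while Tnnt2 averaged 39.9 and 58.8.

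At day 0, before any differentiation, Hira-null cells had less Ccnd1, Ccnd2, Ccne2 and Cdkn2a RNA than WT cells and more Ccnd3, Ccne1, Cdkn1a, Cdkn1b and Cdkn2c. Of the 10 genes 5 were higher and 4 lower at an adjusted p of 0.05 or less, where 20.8% of all genes tested were higher and 19.4% lower. At day 15 the libraries labelled Hira-null had more Ccne1, Cdkn1a, Cdkn2a and Cdkn2b RNA and less Ccnd3, 4 higher and 1 lower, with 18.6% and 18.8% of all genes. The genotype effect differed between the days for 7 of the 10 genes, 4 with a higher and 3 with a lower value at day 15 than at day 0, as did 17.5% and 17.7% of all genes. From day 0 to day 15, 5 genes rose and 4 fell in WT, against 36.1% and 33.4% of all genes, and 5 rose and 2 fell in Hira-null, against 37.5% and 36.4%. These comparisons share libraries, so the counts are not independent of each other. The 4 falls in WT were 2 without WT day 0 replicate 2, without WT day 15 replicate 1 or after quantile normalization. The 4 genes higher at day 15 were 2 without either WT day 15 library. In a fit on the 4 libraries of each comparison alone, the counts of members were unchanged for both genotype effects and both changes with time.

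**Figure D1:**
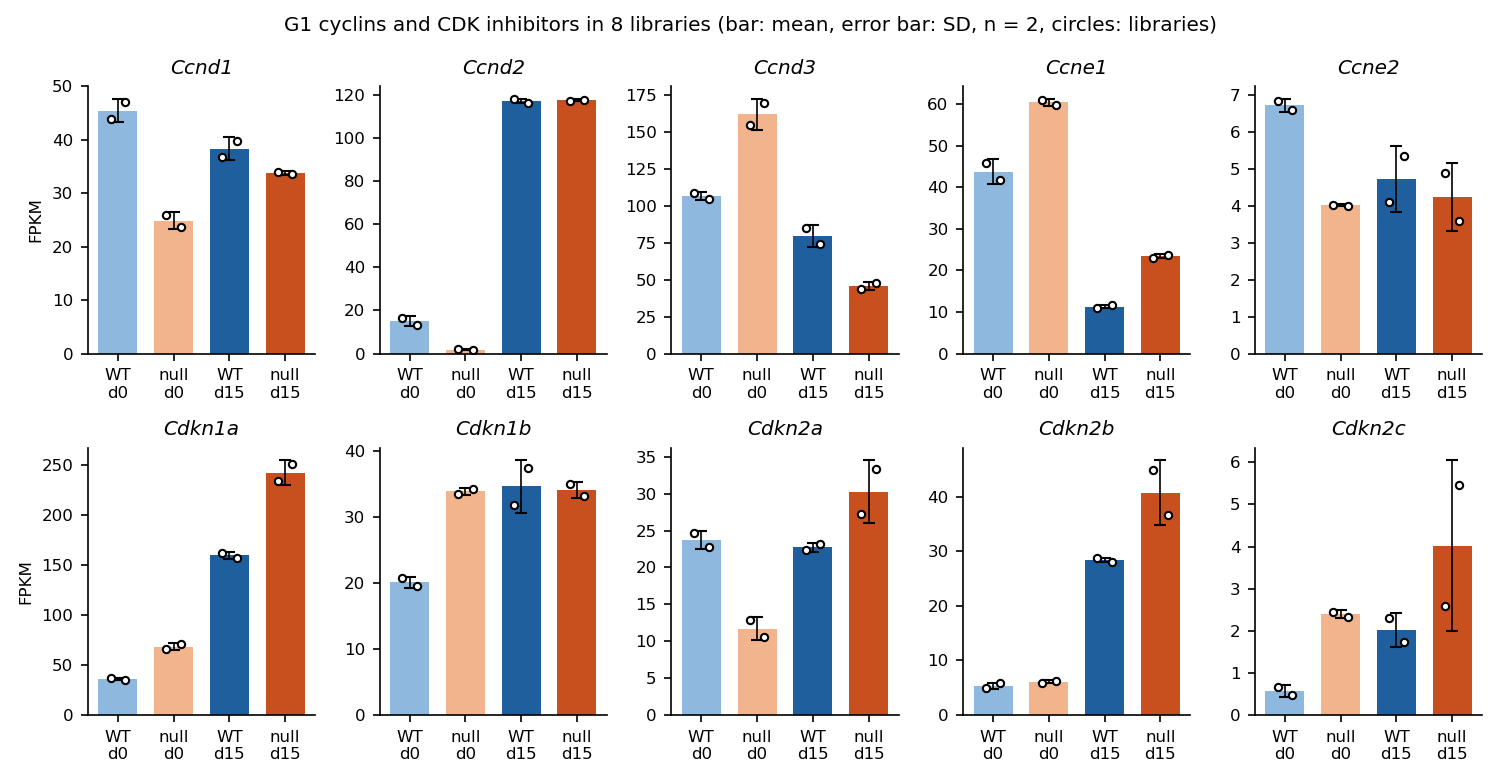
FPKM (vertical axis, from 0, with its own scale for each gene) of the 10 G1 cyclins and CDK inhibitors in the groups WT and Hira-null at day 0 and day 15, where bars are group means, error bars the SD over 2 libraries and circles the libraries. Ccnd2 lies between 1.62 and 16.6 FPKM at day 0 and near 117 in both genotypes at day 15, while Cdkn1a climbs from 36.3 in WT at day 0 to 243 in the libraries labelled Hira-null at day 15.

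Ccnd2, the D cyclin best known from the brain, ovary and pancreatic islets, had the largest genotype effect of the 10 genes at day 0. Its FPKM was 16.6 and 13.2 in the WT libraries and 1.89 and 1.62 in the Hira-null libraries. Both WT libraries lay far above both Hira-null libraries, by 8.52-fold in the means (log2 ratio −2.53 ± 0.11, adjusted p = 3.70e-06). By day 15 the level was 118 and 116 FPKM in WT and 117 and 118 in the libraries labelled Hira-null. The groups overlapped, and the interval of the difference was narrow around 0 (−0.25 to 0.26 on the log2 scale, adjusted p = 0.980). The mean at day 15 was therefore 7.83 times that at day 0 in WT and 66.9 times in Hira-null (log2 ratios of day 15 to day 0 2.90 and 5.43, adjusted p = 1.46e-07 and 5.44e-09). The genotype effects at the 2 days differed by 2.53 on the log2 scale (adjusted p = 7.04e-05).

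Ccnd3, the D cyclin known for its part in lymphocytes and muscle, was the most abundant of the 10 genes at day 0 in both genotypes. It read 108 and 105 FPKM in WT and 154 and 169 in Hira-null cells at day 0. By day 15 it read 84.7 and 74.4 in WT and 43.9 and 47.6 in the libraries labelled Hira-null. At neither day did the genotypes overlap, and the order was opposite: Hira-null was higher at day 0 (log2 ratio 0.60 ± 0.084, adjusted p = 7.39e-04) and lower at day 15 (log2 ratio −0.78 ± 0.087, adjusted p = 2.72e-04). The difference between these effects was −1.38 on the log2 scale (adjusted p = 1.75e-04). In Hira-null Ccnd3 fell by 1.80 on the log2 scale with time (adjusted p = 2.32e-07). In WT the change was −0.42 as deposited (adjusted p = 0.00198), which turned to 0.12 after quantile normalization and no longer passed the test (adjusted p = 0.245).

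Ccnd1, the D cyclin induced by growth factors and WNT signalling, was lower in Hira-null cells at day 0. The WT libraries read 43.9 and 47.1 FPKM and the Hira-null libraries 26.0 and 23.7, with no overlap (log2 ratio −0.85 ± 0.083, adjusted p = 1.35e-04). At day 15 the values were 36.8 and 39.8 in WT and 34.1 and 33.6 in the libraries labelled Hira-null. These lay close together, those labelled Hira-null just below WT, and the difference did not pass the test (95% interval −0.37 to 0.020 on the log2 scale, adjusted p = 0.142). The change in the genotype effect was 0.67 (adjusted p = 0.00344). With time Ccnd1 rose in the Hira-null line, by 0.43 (adjusted p = 0.00139). Its WT value was −0.24 as deposited (adjusted p = 0.0291) and 0.099 after quantile normalization (adjusted p = 0.338). That WT call was also lost without replicate 2 of WT at day 0, replicate 1 of WT at day 15 or replicate 2 of WT at day 15 (adjusted p = 0.137, 0.175 and 0.0504 in turn). The exons of Ccnd1 overlap Oraov1 and those of Ccnd3 overlap Bysl, each on the other strand, and the sources used here do not say whether counting used the strand.

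Set side by side, the D cyclins changed places between the groups. Summed, the 3 D cyclins gave 167 ± 2.83 FPKM in WT and 189 ± 8.74 in Hira-null at day 0 (mean ± SD, n = 2). At day 15 the sums were 235 ± 6.19 and 197 ± 2.67. Ccnd3 held 63.8% ± 0.504 of the sum in WT and 85.8% ± 1.61 in Hira-null at day 0, against 33.8% ± 2.21 and 23.2% ± 1.01 at day 15. Ccnd2 went the other way. It held 8.95% ± 1.29 and 0.934% ± 0.146 at day 0, against 49.8% ± 0.871 and 59.6% ± 0.615 at day 15, and was the largest of the 3 in every day 15 library. The share of Ccnd1 was 27.3% ± 1.79 in WT and 13.2% ± 1.46 in Hira-null at day 0. At day 15 it was 16.3% ± 1.34 and 17.2% ± 0.399, and the libraries of the 2 genotypes overlapped. The shares are a description, with no test of their own.

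**Figure D2:**
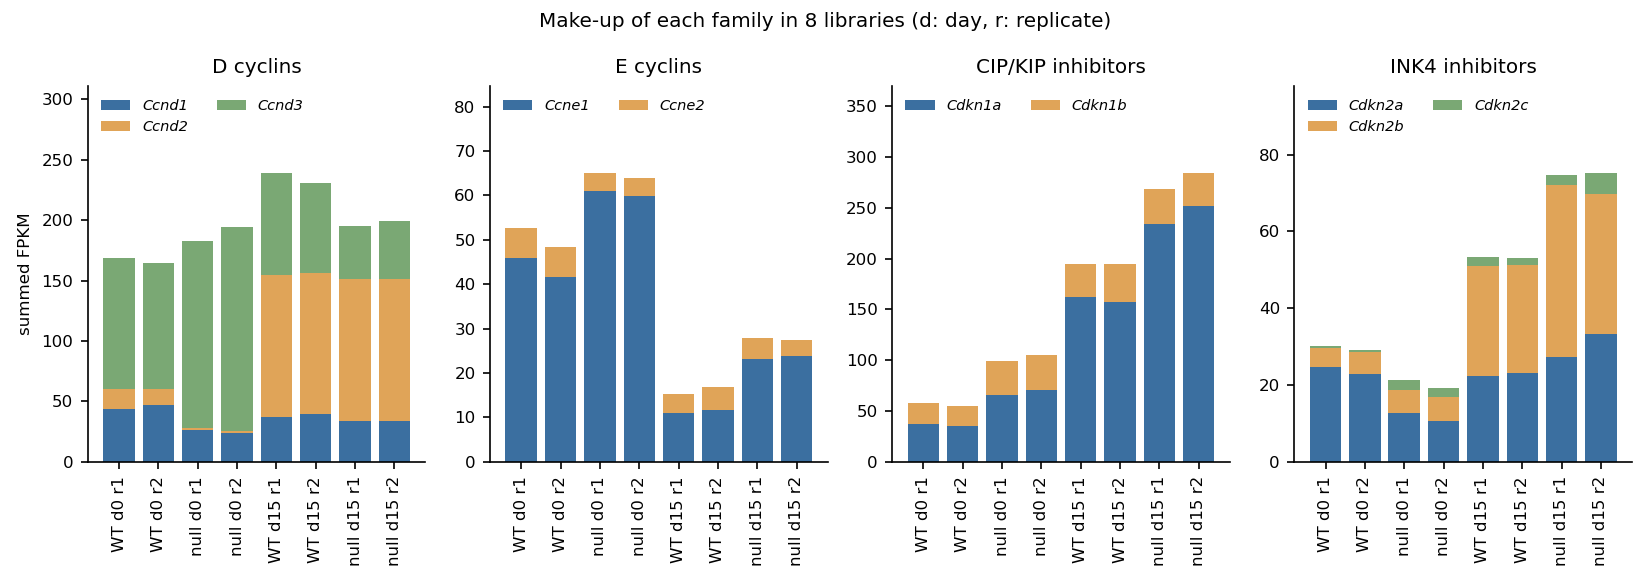
Summed FPKM (vertical axis, from 0, with its own scale in each panel) of the D cyclins, the E cyclins, the CIP/KIP inhibitors and the INK4 inhibitors in each of the 8 libraries (horizontal axis, named by genotype, day and replicate), stacked by gene. Ccnd3 fills 85.8% of the D cyclin bar in Hira-null at day 0 and Ccnd2 59.6% of it in the libraries labelled Hira-null at day 15. Cdkn2d and Cdkn1c, which are outside the 10 genes, are not in the bars.

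Ccne1, of the pair of E cyclins that drive CDK2 at the entry into S phase, was higher in the Hira-null group at both days. It read 45.9 and 41.7 FPKM in WT and 61.1 and 59.9 in Hira-null at day 0 (log2 ratio 0.46 ± 0.080, adjusted p = 0.00230). At day 15 it read 11.1 and 11.6 in WT and 23.1 and 23.7 in the libraries labelled Hira-null (log2 ratio 0.99 ± 0.083, adjusted p = 8.61e-05). The genotypes did not overlap at either day, and the effect was larger at day 15 by 0.53 on the log2 scale (adjusted p = 0.00872). Ccne1 fell with time in both genotypes, to 0.258 of the day 0 mean in WT and 0.387 in Hira-null (adjusted p = 2.60e-07 and 9.60e-07).

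Ccne2, the other E cyclin, was the lower of the pair in every library. Its values were 6.84 and 6.58 FPKM in WT and 4.02 and 3.99 in Hira-null at day 0. At day 15 they were 4.09 and 5.35 in WT and 4.88 and 3.59 in the libraries labelled Hira-null. At day 0 the genotypes were apart (log2 ratio −0.62 ± 0.17, adjusted p = 0.0161), and at day 15 they overlapped (95% interval −0.52 to 0.26, adjusted p = 0.581). The day 0 call was lost without replicate 1 of WT at day 0, replicate 1 of Hira-null at day 0 or replicate 2 of Hira-null at day 0 (adjusted p = 0.0518, 0.0773 and 0.0792 in turn). The change with time was −0.44 in WT (adjusted p = 0.0422) and 0.052 in Hira-null (adjusted p = 0.788). The WT call was lost without replicate 1 of WT at day 0, replicate 2 of WT at day 0, replicate 1 of Hira-null at day 0, replicate 2 of Hira-null at day 0 or replicate 1 of WT at day 15 (adjusted p = 0.112, 0.0799, 0.0600, 0.0601 and 0.276 in turn). Its exons overlap Ints8 on the other strand, and the gene was counted on only 89 to 202 fragments a library. The summed D cyclins were 3.31 ± 0.151 times the summed E cyclins in WT and 2.92 ± 0.174 times in Hira-null at day 0. The ratios were 14.7 ± 1.53 and 7.13 ± 0.209 at day 15.

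**Figure D3:**
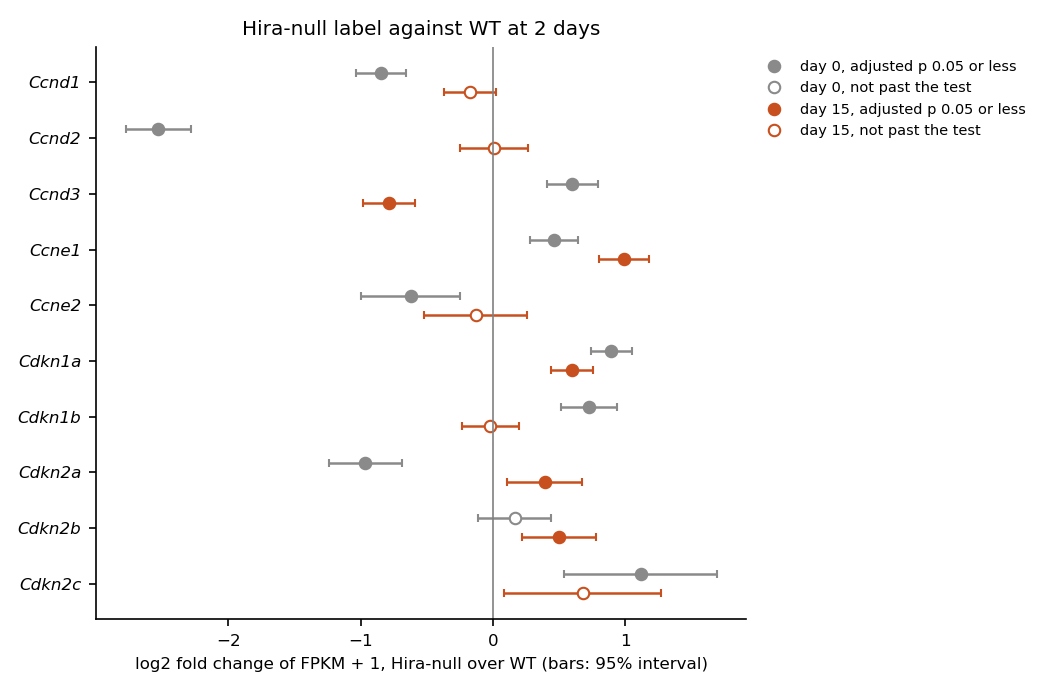
Log2 fold change of FPKM + 1, Hira-null over WT (horizontal axis), of each of the 10 genes (vertical axis) at day 0 (grey) and at day 15 (orange, by label), with bars for the 95% interval; filled points have an adjusted p of 0.05 or less in limma and open points do not. Ccnd3 lies at 0.60 and −0.78 and Cdkn2a at −0.96 and 0.39, on opposite sides of 0, and Ccnd2 moves from −2.53 to near 0.

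Cdkn1a, which encodes p21, the inhibitor that p53 induces, was the CDK inhibitor with the highest level in every library. Its level was 37.0 and 35.5 FPKM in WT and 65.9 and 70.8 in Hira-null at day 0. It was 163 and 158 in WT and 234 and 251 in the libraries labelled Hira-null at day 15. The 4 groups formed 4 separate steps, WT below Hira-null at each day and day 0 below day 15. The means differed 1.88-fold at day 0 (log2 ratio 0.90 ± 0.069, adjusted p = 4.53e-05) and 1.52-fold at day 15 (log2 ratio 0.60 ± 0.071, adjusted p = 3.76e-04). From day 0 to day 15 the mean rose 4.41-fold in WT and 3.55-fold in Hira-null (adjusted p = 8.10e-08 and 8.48e-08). The effects at the 2 days differed by −0.30 (adjusted p = 0.0444). That call was lost in 7 of the 8 fits that left out a library (adjusted p up to 0.159 without Hira-null day 0 replicate 2).

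Cdkn1b, which encodes p27, read lowest in WT at day 0. Its level was 20.7 and 19.5 FPKM there, against 33.5 and 34.3 in the Hira-null libraries of the same day. By day 15 WT had reached 31.9 and 37.5 and the libraries labelled Hira-null read 35.0 and 33.2. The WT libraries at day 0 lay below the other 6, whose groups overlapped. The genotype effect passed the test at day 0 (log2 ratio 0.73 ± 0.093, adjusted p = 4.81e-04) and had a 95% interval of −0.24 to 0.20 at day 15 (adjusted p = 0.889). The difference of the effects was −0.75 (adjusted p = 0.00358). With time Cdkn1b rose in WT (log2 ratio 0.75, adjusted p = 1.03e-04), while in Hira-null the interval was −0.21 to 0.22 (adjusted p = 0.952). The 2 CIP/KIP genes summed to 56.4 ± 1.94 FPKM in WT and 102 ± 3.97 in Hira-null at day 0, then to 195 ± 0.430 and 277 ± 11.1 at day 15.

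Cdkn2a is 1 gene with alternative first exons for different proteins. The upstream start gives p19ARF, which frees p53 from MDM2, and the downstream start p16INK4a, an inhibitor of CDK4 and CDK6, and the table holds 1 value for both. In NCBIM37, the build the reads were aligned to, it lies on chromosome 4 at chr4:88920377-88940557 on the minus strand, and Cdkn2b, which encodes p15INK4b, lies 11641 bases upstream at chr4:88952198-88956941 on the same strand. The RefSeq promoter windows, 250 bases before to 50 after a start in GRCm38.p6, were read for both starts of Cdkn2a, chr4:89294570-89294869 and chr4:89282143-89282442, and for Cdkn2b, chr4:89310983-89311282, all on the minus strand. They are shown because the FPKM of Cdkn2a does not tell its 2 starts apart, and because Cdkn2b is its neighbour and family member. Capitals mark the letters TTTNNCGC, a form of the E2F site, and the GC box GGGCGG, each searched on both strands, with no overlap between them.
Cdkn2a upstream start: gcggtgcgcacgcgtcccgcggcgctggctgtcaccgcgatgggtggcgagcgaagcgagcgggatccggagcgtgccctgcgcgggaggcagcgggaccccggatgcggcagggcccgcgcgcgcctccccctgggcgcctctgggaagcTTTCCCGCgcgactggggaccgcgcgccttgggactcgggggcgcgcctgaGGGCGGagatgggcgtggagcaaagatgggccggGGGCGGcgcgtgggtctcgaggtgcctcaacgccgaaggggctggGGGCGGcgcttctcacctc
Cdkn2a downstream start: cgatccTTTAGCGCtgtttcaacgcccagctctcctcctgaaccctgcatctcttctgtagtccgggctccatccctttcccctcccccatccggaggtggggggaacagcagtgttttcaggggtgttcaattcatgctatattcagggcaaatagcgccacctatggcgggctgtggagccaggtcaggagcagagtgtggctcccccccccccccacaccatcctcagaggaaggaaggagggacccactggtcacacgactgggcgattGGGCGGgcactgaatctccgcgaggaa
Cdkn2b: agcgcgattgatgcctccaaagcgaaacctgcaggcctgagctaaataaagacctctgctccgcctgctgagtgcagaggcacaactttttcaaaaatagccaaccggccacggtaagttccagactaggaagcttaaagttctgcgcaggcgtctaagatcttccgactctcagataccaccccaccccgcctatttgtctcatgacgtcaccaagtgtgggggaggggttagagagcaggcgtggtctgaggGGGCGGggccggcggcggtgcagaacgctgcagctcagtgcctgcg
The E2F letters stood at 99 bases before the upstream start of Cdkn2a as TTTCCCGC and 244 before the downstream start as TTTAGCGC, and were in neither the Cdkn2b window nor any other of the 11 windows found for 7 of the 10 genes. Among all 32851 promoters 5.17% held these letters and 35.7% held a GC box, of which the upstream Cdkn2a window had 3 and the other pair 1 each. The upstream Cdkn2a window was also richer in G and C, 77.0% against 60.3% at the downstream start and 57.7% in Cdkn2b, beside a median of 52.7% over all promoters. A match of letters describes the window and is not a binding site.

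Cdkn2a read 24.6 and 22.8 FPKM in WT and 12.8 and 10.6 in Hira-null at day 0. The Hira-null libraries lay below WT, with no overlap (log2 ratio −0.96 ± 0.12, adjusted p = 4.44e-04). By day 15 it read 22.3 and 23.1 in WT and 27.3 and 33.3 in the libraries labelled Hira-null, which were then the higher (log2 ratio 0.39 ± 0.12, adjusted p = 0.0367). The day 15 call was lost without replicate 1 of WT at day 0, replicate 2 of WT at day 0, replicate 1 of WT at day 15, replicate 2 of WT at day 15 or replicate 2 of Hira-null at day 15 (adjusted p = 0.0504, 0.0502, 0.205, 0.159 and 0.169 in turn). It stood on a replicate SD of 4.26 FPKM in the libraries labelled Hira-null against 0.570 in WT. The difference between the effects was 1.36 (adjusted p = 8.67e-04). With time Cdkn2a rose 2.58-fold in Hira-null (adjusted p = 1.40e-05). In WT the 95% interval of the change was −0.34 to 0.22 on the log2 scale (adjusted p = 0.688).

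Cdkn2b, an inhibitor known to respond to TGF-beta, was low at day 0, with 4.97 and 5.78 FPKM in WT and 5.96 and 6.29 in Hira-null. Here the effect of genotype did not pass the test (95% interval −0.11 to 0.44, adjusted p = 0.321), on 51 to 77 fragments a library. By day 15 its levels were 28.7 and 28.1 in WT and 45.0 and 36.6 in the libraries labelled Hira-null, with no overlap (log2 ratio 0.50 ± 0.12, adjusted p = 0.0131). That call was lost without replicate 1 of WT at day 15, replicate 2 of WT at day 15 or replicate 1 of Hira-null at day 15 (adjusted p = 0.0942, 0.110 and 0.0686 in turn). The rise with time was 5.29-fold in WT and 6.66-fold in Hira-null (adjusted p = 8.34e-07 and 2.48e-07). The genotype effects of the 2 days differed by 0.34, which did not pass the test (adjusted p = 0.162).

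Cdkn2c, which encodes p18INK4c, was the lowest of the 10 genes in every group but Hira-null at day 0, where Ccnd2 was lower. Its FPKM was 0.663 and 0.473 in WT and 2.46 and 2.32 in Hira-null at day 0, counted on 9 to 46 fragments. The groups were apart (log2 ratio 1.11 ± 0.25, adjusted p = 0.00798), a call lost without replicate 1 of Hira-null at day 0 (adjusted p = 0.0552). At day 15 it read 2.31 and 1.74 in WT and 2.59 and 5.46 in the libraries labelled Hira-null, replicate 2 of which stood well above the other 7 libraries. The day 15 difference did not pass the test (95% interval 0.082 to 1.27, adjusted p = 0.0718), but did without replicate 1 of Hira-null at day 15 (adjusted p = 0.00639). Over time it rose in WT (log2 ratio 0.94, adjusted p = 0.00952), though not without replicate 1 of WT at day 15 (adjusted p = 0.0788). After quantile normalization that value was 0.47 and did not pass (adjusted p = 0.137). In Hira-null the change was 0.51 (adjusted p = 0.104), which passed without replicate 1 of Hira-null at day 15 (adjusted p = 0.00475). The difference of the genotype effects was −0.44 (adjusted p = 0.379) and passed the test without replicate 2 of Hira-null at day 15 (adjusted p = 0.0431). Together the 3 INK4 genes among the 10 gave 30.3 and 29.1 FPKM in the WT libraries and 21.2 and 19.2 in the Hira-null libraries at day 0. Cdkn2a, whose value also holds p19ARF, made 79.9% ± 2.04 of that sum in WT and 57.8% ± 3.65 in Hira-null. Of these genes only Cdkn2a was lower in Hira-null at day 0. By day 15 they gave 53.4 and 53 in WT and 74.8 and 75.3 in the libraries labelled Hira-null. These sums leave out Cdkn2d, the INK4 gene outside the 10. At day 0 Cdkn2d read 8.67 and 9.97 FPKM in WT and 21.7 and 18.5 in Hira-null, opposite to the sum. The lower day 0 sum in Hira-null therefore holds for the 3 genes and not for the whole INK4 family.

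**Figure D4:**
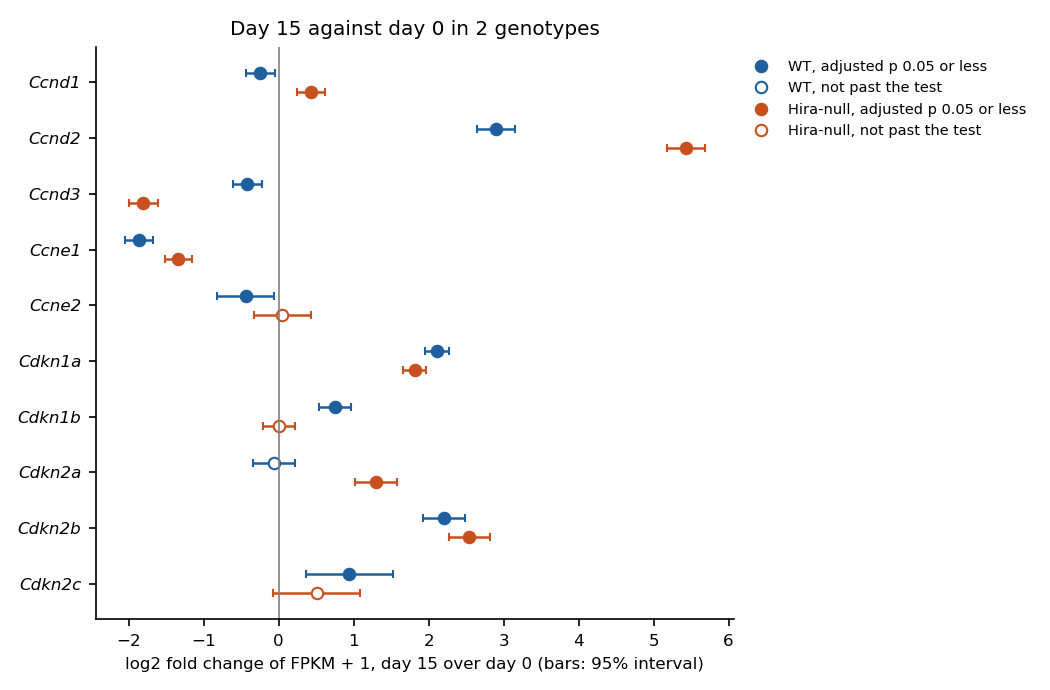
Log2 fold change of FPKM + 1, day 15 over day 0 (horizontal axis), of each of the 10 genes (vertical axis) in WT (blue) and in Hira-null (orange, day 15 by label), with bars for the 95% interval; filled points have an adjusted p of 0.05 or less in limma. Ccnd2 rises by 2.90 in WT and 5.43 in Hira-null and Ccne1 falls in both, while the small WT values of Ccnd1 and Ccnd3, −0.24 and −0.42, turn above 0 after quantile normalization.

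The order of the 10 levels differed between the groups. In WT at day 0 Ccnd3 led at 106 ± 2.65 FPKM, followed by Ccnd1 and Ccne1, whose libraries overlapped. Below them came Cdkn1a, Cdkn2a, Cdkn1b, Ccnd2, Ccne2, Cdkn2b and Cdkn2c, with no overlap between neighbours after Ccne1. In Hira-null at day 0 Ccnd3 led at 162 ± 10.5, then Cdkn1a and Ccne1, and Ccnd2 came last at 1.75 ± 0.194, with no overlap between any neighbours. In WT at day 15 Cdkn1a led at 160.1 ± 3.53, ahead of Ccnd2 and Ccnd3, and Ccnd1 and Cdkn1b overlapped in the middle. In the libraries labelled Hira-null at day 15 Cdkn1a led at 243 ± 12.4, again ahead of Ccnd2. Ccnd3 came next and overlapped Cdkn2b, Cdkn1b overlapped Ccnd1, and Ccne2 overlapped Cdkn2c at the bottom.

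The kinases that these cyclins drive moved in both directions. Of 7 G1 kinases and kinase activators 1 was higher and 2 lower in Hira-null at day 0, and 2 were higher and 2 lower at day 15. Over all genes tested 20.8% were higher and 19.4% lower at day 0, and 18.6% and 18.8% at day 15. The genotype effect was higher at day 15 than at day 0 for 17.5% and lower for 17.7%. These shares also stand beside the counts of the other lists below and of the markers. The median log2 ratios were −0.096 and −0.050, beside 0.013 and 0.011 over all genes. The 2 lower at day 0 were Cdk6 and Mnat1. The Mnat1 call was lost at a pseudocount of 0.1, after quantile normalization, with no weights, with a replicate block and in limma voom. It was also lost with the 4 day 0 libraries alone. The 2 lower at day 0 were 0 without replicate 1 of Hira-null at day 0, and 1 without any 1 of the other 3 day 0 libraries or either WT day 15 library. At day 15 the 2 higher were 1 without replicate 1 of WT or replicate 2 of those labelled Hira-null, and the 2 lower were 1 without either WT library or replicate 1 of those labelled Hira-null. Cdk4, the D cyclin partner, at 216 ± 2.81 FPKM in WT and 291 ± 1.66 in Hira-null at day 0, was higher in Hira-null at both days (log2 ratio 0.43 and 0.30, adjusted p = 4.36e-04 and 0.00342). Cdk6, the other partner, was lower at day 0 (−0.60, adjusted p = 0.00717) and higher at day 15 (0.54, adjusted p = 0.0143). Its effects differed by 1.15 (adjusted p = 0.00268). The Cdk6 call at day 0 was lost without replicate 1 of Hira-null (adjusted p = 0.0542) and that at day 15 without replicate 1 of WT or replicate 2 of those labelled Hira-null (adjusted p up to 0.151). Cdk2, the partner of E cyclins, was 25.4 ± 0.615 FPKM in WT and 17.4 ± 0.467 in the libraries labelled Hira-null at day 15 (log2 ratio −0.52, adjusted p = 0.00164), where Ccne1 ran the opposite way. Among the pocket proteins, Rb1 was 9.01 ± 0.308 and 13.6 ± 1.63 FPKM at day 15 (log2 ratio 0.54, adjusted p = 0.0112). That call was lost without either WT library or replicate 1 of those labelled Hira-null (adjusted p up to 0.102). Rbl1 and Rbl2 did not pass the genotype test at either day, though Rbl1 at day 0 did without WT day 0 replicate 2 and after quantile normalization (adjusted p down to 0.0449).

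Both remaining inhibitors of the families were higher in Hira-null at day 0. Cdkn2d, which encodes p19INK4d, was 9.32 ± 0.924 FPKM in WT and 20.1 ± 2.27 in Hira-null (log2 ratio 1.03, adjusted p = 2.91e-04). At day 15 it was 8.51 ± 0.255 and 10.8 ± 0.503, which did not pass the test (95% interval 0.029 to 0.59, adjusted p = 0.0790). Cdkn1c, the imprinted gene for p57, was 17.6 ± 3.49 and 32.3 ± 3.96 FPKM at day 0 (log2 ratio 0.85, adjusted p = 0.00239). At day 15 Cdkn1c read 15.1 and 15.5 in WT against 109 and 137 in the libraries labelled Hira-null (log2 ratio 2.92, adjusted p = 1.17e-05), a larger genotype effect than that of any of the 10 genes.

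Of the E2F and DP factors 3 of 10 were higher and 4 lower in Hira-null at day 0, and 0 higher and 2 lower at day 15. E2f3 fell from 13.7 ± 1.28 FPKM in WT to 4.80 ± 0.00600 in Hira-null at day 0 (log2 ratio −1.34, adjusted p = 6.42e-05). Tfdp1, the common partner of E2F factors, fell from 85.5 ± 3.66 to 46.6 ± 1.46 (adjusted p = 2.78e-04). Tfdp1 was lower at day 15 too (−0.70, adjusted p = 0.00101), as was E2f4 (−0.39, adjusted p = 0.0161). The count of 3 higher was 1 without WT day 0 replicate 1, without either Hira-null day 0 library, after quantile normalization and with the 4 day 0 libraries alone. The count of 2 lower was 1 without WT day 15 replicate 1 or replicate 1 of those labelled Hira-null, where the E2f4 call was lost (adjusted p up to 0.144). The MYC factors, known to induce D cyclins and Cdk4, were 1 higher and 3 lower of 4 at day 0. Max was among the lower, a call lost after quantile normalization and with the 4 day 0 libraries alone. It was also lost without WT day 0 replicate 2 or either Hira-null day 0 library. Myc was 21.9 ± 1.58 FPKM in WT and 3.74 ± 0.12 in Hira-null (log2 ratio −2.27, adjusted p = 1.73e-05) and Mycn 96.6 ± 1.44 and 38.8 ± 1.26 (adjusted p = 7.99e-05). At day 15 none of the 4 passed in limma on log2 values, 1 did at an unadjusted p of 0.05 or less, and 1 was higher in limma voom on fragments. Myc was then 16.7 ± 0.475 and 17.1 ± 3.58 FPKM (95% interval of the log2 difference −0.30 to 0.34).

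**Figure D5:**
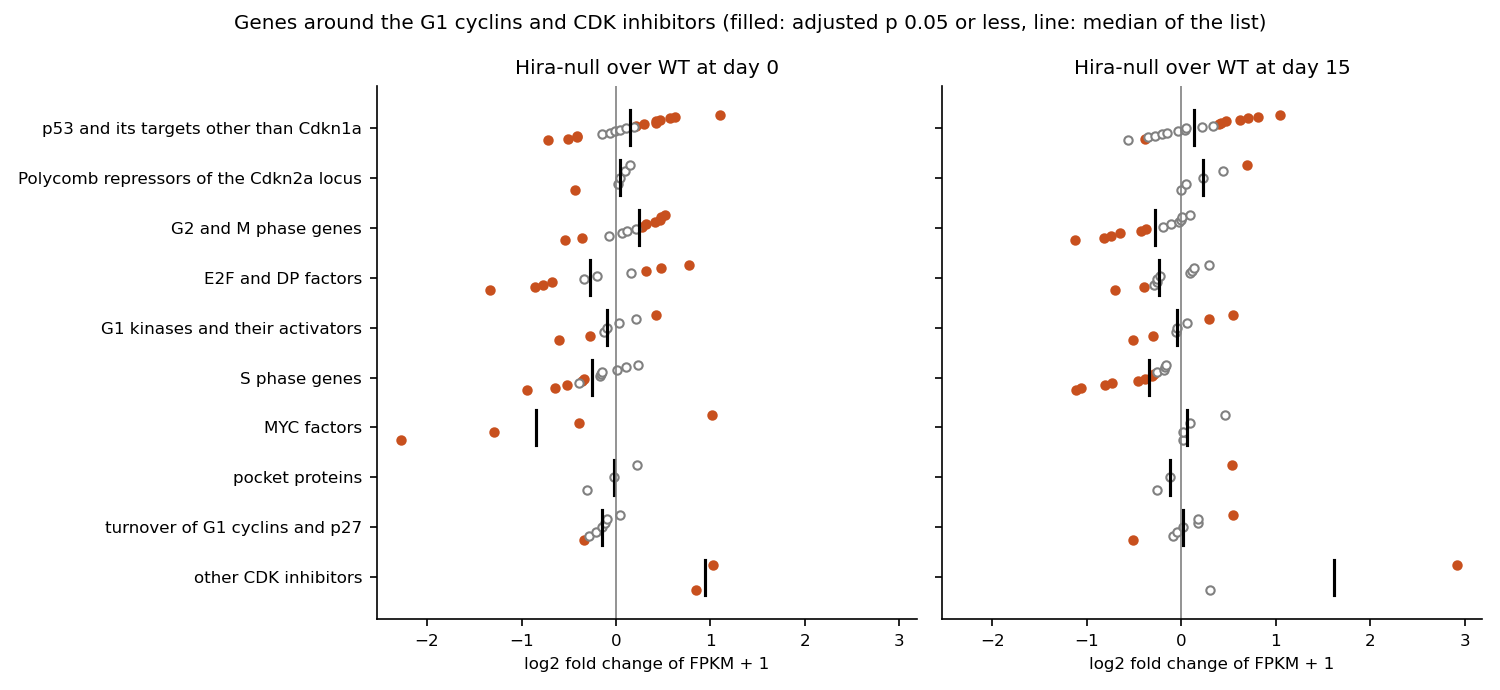
Log2 fold change of FPKM + 1, Hira-null over WT (horizontal axis), at day 0 (left) and, by label, at day 15 (right), of the genes of 10 lists around the G1 cyclins and CDK inhibitors (vertical axis), with filled points at an adjusted p of 0.05 or less in limma and a line at the median of each list. The S phase list has its median at −0.25 and −0.35 and the G2 and M phase list at 0.25 and −0.28.

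Downstream of G1, the S phase genes that passed the test were lower in Hira-null and fell with time. Of 12 S phase genes 0 were higher and 5 lower in Hira-null at day 0 (3 without either Hira-null day 0 library), and 0 higher and 8 lower at day 15 (5 without either WT day 15 library). Cdc6, which loads the replicative helicase, was 27 ± 1.62 FPKM in WT and 13.5 ± 0.408 in Hira-null at day 0 (adjusted p = 2.84e-04). Cdt1, its partner, was 44.6 ± 4.47 in WT and 20.8 ± 1.97 in the libraries labelled Hira-null at day 15 (adjusted p = 1.13e-04). Of 12 G2 and M phase genes 6 were higher and 2 lower at day 0, among them Ccnb2, a mitotic cyclin, at 106 ± 1.38 and 153 ± 0.291 FPKM (adjusted p = 9.82e-04). Among the higher, the calls of Aurka and Cdc20 were lost without either Hira-null day 0 library. The Cdc20 call was also lost without either WT day 0 library, at a pseudocount of 0.1 and with no filter. At day 15, 0 were higher and 6 lower, among them Aurkb, a mitotic kinase, at 34.9 ± 0.353 and 15.5 ± 0.331 FPKM (adjusted p = 4.92e-05). The Ccnb1 call at day 15 was lost with the 4 libraries compared alone, without either WT library and without replicate 2 of those labelled Hira-null. That of Birc5 was lost without WT day 15 replicate 2. The genotype effect was lower at day 15 than at day 0 for 9 of these 12 genes (5 and 4 without Hira-null day 0 replicate 1 or 2, and 4 without WT day 15 replicate 2) and higher for 0. Each count of 0 in the S phase and G2 and M phase lists was also 0 at an unadjusted p of 0.05 or less and in limma voom. With time, 11 of 12 S phase genes fell in WT and 12 in Hira-null (median log2 ratio −0.94 and −1.11). Of the G2 and M phase genes 10 fell and 1 rose in WT, and 11 fell and 1 rose in Hira-null (median −1.35 and −1.84). Over all genes the medians were 0.034 and 0.013 in WT and Hira-null, and 33.4% and 36.4% of all genes fell.

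Beside Cdkn1a, the other p53 genes did not run in 1 direction. Of 18 genes, Trp53 and 17 targets, 8 were higher and 4 lower in Hira-null at day 0 and 7 higher and 1 lower at day 15. Bbc3, which encodes the death protein PUMA, was 17.5 ± 2.25 FPKM in WT and 38.6 ± 1.04 in Hira-null at day 0 (adjusted p = 1.63e-04), while Trp53 itself was lower, 202 ± 3.86 and 123 ± 1.18 (adjusted p = 1.07e-04). At day 15 Perp was 21.6 ± 1.46 in WT and 45.6 ± 2.94 in the libraries labelled Hira-null (adjusted p = 8.63e-05). Plk2 was 62.7 ± 1.55 and 111 ± 6.51 (adjusted p = 1.22e-04). Single libraries moved these counts. At day 0 the 8 higher became 2 without Hira-null replicate 1, 5 without Hira-null replicate 2, 4 without WT replicate 1 and 5 with the day 0 libraries alone. At day 15 the 7 became 3 without WT replicate 2.

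Of 7 genes for the turnover of G1 cyclins and p27, 0 were higher and 1 lower at day 0, Cul1 at 27.8 ± 1.03 and 21.9 ± 3.10 FPKM (adjusted p = 0.0462). That call was lost without either WT day 0 library, Hira-null day 0 replicate 2 or either WT day 15 library (adjusted p up to 0.311 over all settings tried). At day 15 Fbxw7, the ubiquitin ligase subunit that marks cyclin E, was 10.6 ± 0.319 in WT and 15.9 ± 0.579 in the libraries labelled Hira-null (log2 ratio 0.54, adjusted p = 0.00579, up to 0.0705 without either WT day 15 library). Cul4a was lower (−0.52, adjusted p = 0.00433, and 0.0669 without WT day 15 replicate 2). Of 5 Polycomb genes known to repress Cdkn2a, Rnf2 was lower at day 0 (42.3 ± 5.07 and 31.0 ± 2.80 FPKM, adjusted p = 0.0233) and Cbx8 higher at day 15 (6.91 ± 1.11 and 11.8 ± 0.496 FPKM, adjusted p = 0.0220). The Rnf2 call was lost without WT day 0 replicate 2 or either Hira-null day 0 library (adjusted p up to 0.158 over all settings tried), and the Cbx8 call without any 1 of the 4 day 15 libraries (up to 0.216). Bmi1, Ezh2 and Cbx7 did not pass the genotype test at either day with all libraries. At day 15 Cbx7 passed without replicate 1 of those labelled Hira-null (adjusted p = 0.00722) and Bmi1 in limma voom (adjusted p = 0.0134).

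Markers of other cells moved with genotype at day 15, beside all the day 15 differences given above. Over 7 fibroblast and mesenchyme markers the summed level was 2027 to 2252 FPKM in WT and 655 to 835 in the libraries labelled Hira-null, with 7 of 7 lower. For 7 visceral endoderm markers the sums were 114 to 118 and 4.11 to 5.37 (6 lower), and for 6 blood markers 61.4 to 66.2 and 2.46 to 3.0 (4 lower), where the embryonic globins Hbb-bh1 and Hba-x were at 0 in the libraries labelled Hira-null. The 7 endothelial markers summed to 41.4 to 43.6 and 14.6 to 15.8 (5 lower), and 5 skeletal muscle markers to 16.2 to 17.9 and 9.17 to 9.23 (3 lower). Higher in the libraries labelled Hira-null were the sums of the 6 neural progenitor markers, 103 to 111 in WT and 311 to 331 (4 higher). Fabp7 carried most of that difference, with means of 43.2 in WT and 199 in the libraries labelled Hira-null. The sums of the 6 neuron markers were higher too, 97.2 to 101 and 239.8 to 244 (6 higher). At day 0 some of these sums differed too, with fibroblast markers at 39.7 to 41.3 in WT and 23.2 to 26.5 in Hira-null (2 lower) and skeletal muscle markers at 29.5 to 31.0 and 17.7 to 19.3 (2 lower). The visceral endoderm sums were 20.6 to 21.5 and 8.23 to 11.2, with 2 markers higher and 1 lower, Cubn, which went from 14.9 to 0.370 FPKM in the means. Neuron markers summed to 203.6 to 203.8 FPKM in WT and 228 to 236 in Hira-null at day 0 (2 higher, 1 lower), mostly from Stmn2. Endothelial markers summed to 66.3 to 66.4 and 70.9 to 73.2 (0 higher, 1 lower), mostly from Pecam1. Undifferentiated cells thus gave neuron and endothelial sums of their own, so those sums are not particular to neurons or endothelium. The pluripotency sums given above differed at both days. The part of these cells in the levels of the G1 genes was not tested.

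Over the 8 libraries the genes with the pattern most like each member were sought among all genes tested, by the distance between log2 values centred on their mean. The nearest to Ccnd2 was Cdh2, which encodes N-cadherin, at a distance of 1.53, and no gene lay within 0.5 of it. The distance grows with how much a gene varies, and Ccnd2 varied most of the 10 (length of its centred values 6.41, against 0.771 to 3.41). Ccne1 was nearest to Bcam (0.379), Ccnd3 to Ifitm2 (0.291), Cdkn1a to Thbs3 (0.321) and Cdkn2c to Dok1 (0.480), with 8, 37, 13 and 2 genes within 0.5. Cdkn2a was nearest to Sfpq, an RNA-binding protein gene (0.267, with 16 genes within 0.5), and Cdkn2b to Tox (0.234, with 30), whose level in both WT day 0 libraries was listed at 0. Ccnd1, Cdkn1b and Ccne2, whose levels varied least over the libraries, had 168, 126 and 229 genes within 0.5, so that their nearest, 2310036O22Rik, Gabarapl1 and Znhit6, set them apart less. None of the 10 was the nearest gene of another.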

How the data were processed

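RNA was sequenced in 8 libraries, from 2 biological samples of each genotype and day. The authors made paired-end libraries with a stranded mRNA kit, aligned the reads to mm9 with Bowtie (0.12.2) and deposited FPKM for 24421 genes, and the submitters' processing notes name DESeq2 (1.6.3) for their comparisons. Tables of those comparisons, which hold means, fold changes, their errors and raw and adjusted p-values, were not used. Low FPKM values stepped as whole fragments for 100% of the 19134 genes above 0 (within 1.26e-04 of a fragment), which gave the depth. Between libraries, the scale of the FPKM lay within 1.06% of median-of-ratios factors and up to 8.99% from the fragment totals. Totals are slightly low where all counts of a gene share a factor, and depth covers counting error only.

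Values were taken as log2(FPKM + 1), so fold changes understate those of low genes. The 14337 genes that reached FPKM 1 in 2 or more libraries were fitted in limma 3.58.1 (R 4.3.3), as 4 group means over 8 libraries with a weight per day (1.03 and 0.968), an empirical Bayes trend (4 residual and 4.70 prior degrees of freedom) and Benjamini-Hochberg adjustment at 0.05. The script was tested on simulated data. Intervals are at 95% and errors are SD with n = 2.

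The members and gene lists were chosen with earlier results of these data known. Named are the 10 members, Hira, the genes Cdk4, Cdk6, Cdk2, Rb1, Cdkn1c and Cdkn2d, and of each list in a comparison described 1 or both of the 2 called genes with the largest change, and the gene nearest in pattern to each member. Rbl1, Rbl2, Bmi1, Ezh2, Cbx7, Hbb-bh1, Hba-x, Dppa5a, Zfp42, Cubn and the overlapping genes Oraov1, Bysl, Ints8 and Gm15797 were chosen after their values were seen. So were Aurka, Cdc20, Ccnb1, Birc5, Max, Mnat1, Fabp7, Stmn2, Pecam1, Myl7 and Tnnt2. All 152 list and marker genes matched, 1 through an older symbol. Gene positions are from NCBIM37 (mm9), and promoter windows and sequences from RefSeq in GRCm38.p6, found for 7 members (not for Ccnd1, Ccnd2 and Ccne2). Alternatives were another pseudocount (0.1), no filter, median-of-ratios scaling, quantile normalization, the 4 libraries compared, no weights, a replicate block, each library left out and, chosen after seeing the data, limma voom on the recovered fragments. Replicates with the same number did not deviate together.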

Additional observations from a re-analysis of the deposited data

Results flagged for a closer look

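For 7 members the effect of the Hira-null label differed between day 15 and day 0 by a test of the difference itself in limma. On the log2 scale, the day 15 effect minus the day 0 effect was 2.53 for Ccnd2, 1.36 for Cdkn2a, 0.67 for Ccnd1 and 0.53 for Ccne1. It was −1.38 for Ccnd3, −0.75 for Cdkn1b and −0.30 for Cdkn1a. Ccnd3 and Cdkn2a passed the test on opposite sides of 0 at the 2 days. The Cdkn2a call at day 15 was lost in limma with no filter and with a replicate block (adjusted p = 0.0604 and 0.0651), and without some single libraries. Among the differences the adjusted p of Cdkn1a, 0.0444, was the nearest to the threshold.

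Hira, the targeted gene, differed in the same way, by 1.37 (adjusted p = 4.44e-04, limma), being lower in Hira-null at day 0 and not lower in the libraries labelled Hira-null at day 15. Without replicate 1 of those libraries the value was 1.49, and without replicate 2 it was 1.25. Every difference between the days above rests on these libraries.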

How the results depend on the processing

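Over 8 settings that left out no single library, 1 of them a fit on the 4 libraries compared, 378 of 390 member values kept their direction and side of the threshold, 9 lost and 1 gained a call, and 2 turned. With no filter, the 4 libraries compared, no weights or a replicate block, the log2 values were fixed and only the call could change. Median-of-ratios scaling changed little, since its factors lay within 1.06% of the deposited scale. The count of values kept was thus partly fixed in advance. After quantile normalization the WT change with time was 0.0987 for Ccnd1 and 0.12 for Ccnd3 on the log2 scale. This setting moved the median change of all genes by −0.21 in WT, against which the values were 0.31 and 0.33, and by −0.16 in Hira-null; the cause was not tested. Leaving out a library lost 28 and gained 3 calls among 400. Genes called then ran from 3706 to 5613 at day 0 (5765 with all libraries), 2603 to 5301 at day 15 (5363) and 2893 to 4682 for the difference of the effects (5044), with fewer samples in each fit. Members called at day 15 ran from 3 to 5, with 3 when either WT day 15 library was left out, where Cdkn2a and Cdkn2b were lost. With 1 library left in a group, it was taken to vary like the others. Where the library left out lay outside a comparison, the log2 values of that comparison were fixed and only the calls could change.

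Fitted with a replicate block, 47 of 50 member values kept their call. Cdkn2a at day 15 (adjusted p = 0.0651), Ccne2 with time in WT (0.0536) and the difference of effects of Cdkn1a (0.0658) did not, and 5953 genes were called at day 0, 4668 at day 15 and 4706 for the difference. Same-numbered replicates had deviations that correlated between −0.0967 and 0.0455, so the numbers were not taken to pair samples. Cdkn2c at day 15 passed in limma voom (adjusted p = 0.0308), and Cdkn1a's difference was lost with no filter (0.0510) and after quantile normalization (0.382). With no filter Cdkn2a at day 15 (0.0604) and Ccne2 with time in WT (0.0667) were lost too, the latter also at a pseudocount of 0.1 (0.0564). Counts of 9 to 117 fragments limit Cdkn2c.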
